A study of Mus musculus with 21 samples.

Results

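The heat shock chaperones described here are 10 genes, taken by name from both deposited RNA-seq tables, of 33829 genes listed in the first and 55385 in the second. They are the inducible HSP70 pair Hspa1a and Hspa1b, the HSP70 partners Hsph1 and Dnajb1, the small heat shock protein gene Hspb1, the constitutive HSP70 gene Hspa8, the HSP90 genes Hsp90aa1 and Hsp90ab1, and the mitochondrial chaperonin genes Hspd1 and Hspe1. All 10 passed the filter on low counts in both tables, which left 22641 and 21922 genes for testing. The set was chosen by name with earlier results of these data known, and which results led to it is not recorded. The changes between irisin pre-treated and MPTP treated mice were taken to stand behind the choice. For that reason the values of the 10 genes in the pre-treatment experiment are given as a description. They were tested only in the delayed treatment experiment, whose mice are different animals. Whether results of that experiment also had a part in the choice is not known, so those tests may not be independent of it.

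The mice were male C57BL/6 animals, given as 6 weeks old in the labels, and all injections were intraperitoneal. In the pre-treatment experiment, control mice received ddH2O for 10 days, MPTP treated mice received ddH2O and MPTP (30 mg/kg per day) for 5 days each, and the third group received irisin (200 µg/kg per day) for 5 days and then MPTP for 5 days. In the delayed treatment experiment, the groups were a ddH2O control, irisin alone, MPTP alone, and 5 days of MPTP followed by 5 days of irisin, at the same doses and with ddH2O on the other days where only 1 agent was given. Each of the 7 groups had 3 mice. MPTP is a neurotoxin that damages dopaminergic neurons, and irisin is a hormone cut from the membrane protein FNDC5, which muscle releases during exercise. The tissue is called midbrain in the labels and is described in the methods as nigral tissue taken out by hand after perfusion, so each library mixes neurons, glia and vessels. In such tissue, fewer cells of a type and less RNA per cell cannot be told apart.

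The count per mouse was 66.7 to 75.6 M with pre-treatment and 48.8 to 77.2 M reads with delayed treatment. None of the 10 dopaminergic neuron markers examined, among them Th and Slc6a3, was at 0 in all mice, and their summed level was 489 to 884 CPM (counts-per-million, scaled between libraries with the TMM method) over both experiments. Choroid plexus markers ranged from 28.5 to 1657 CPM among MPTP treated mice of the pre-treatment experiment, where 1 mouse stood apart. In the delayed treatment experiment their summed level was 248 to 1521 CPM in control mice, 75.3 to 302 CPM with irisin alone, 45.4 to 1557 CPM with MPTP and 188 to 1680 CPM with MPTP followed by irisin. All 7 of these markers were lower with irisin alone than in control mice (50.5% of all genes tested), with a median log2 fold change of −1.94. In 4 of the 7 the groups did not overlap, as in 1684 of all 21922 genes tested that were lower. The part of these markers in the results on the members was not tested. The 2 experiments were deposited as separate tables and were never fitted together.

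Cells that hold misfolded proteins release heat shock factor 1 from its chaperone partners, and this factor then binds heat shock elements in the promoters of chaperone genes. The inducible HSP70 proteins hold and refold unfolded clients, J-proteins such as Dnajb1 hand clients to HSP70, and Hsph1 exchanges its nucleotide. Small heat shock proteins such as Hspb1 keep clients from aggregating, HSP90 proteins mature kinases and receptors, and Hspd1 with Hspe1 forms the folding chamber of mitochondria. In the brain, Hspa8 and both HSP90 genes are abundant at rest, whereas Hspa1a and Hspa1b are low until stress.

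The promoters of Hspa1b and Hspa1a are shown because this pair had the largest changes and because their near-identity limits how each gene can be counted. The sequences are the 250 bases before the start of each gene from RefSeq (GRCm38.p6), read on the minus strand, at chr17:34959239-34959488 for Hspa1b and chr17:34972157-34972406 for Hspa1a. Capitals mark a heat shock element of 2 units, GAANNTTC or TTCNNGAA.
Hspa1b: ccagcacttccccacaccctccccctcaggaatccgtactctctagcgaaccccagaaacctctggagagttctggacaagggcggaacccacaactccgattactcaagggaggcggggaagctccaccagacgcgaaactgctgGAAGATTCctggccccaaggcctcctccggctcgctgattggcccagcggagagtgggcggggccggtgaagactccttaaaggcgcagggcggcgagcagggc
Hspa1a: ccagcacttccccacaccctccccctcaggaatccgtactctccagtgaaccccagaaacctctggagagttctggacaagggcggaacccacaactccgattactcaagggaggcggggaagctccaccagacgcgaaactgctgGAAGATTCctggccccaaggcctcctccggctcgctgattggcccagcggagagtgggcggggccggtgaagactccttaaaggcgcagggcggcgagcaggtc
The windows differ at 3 of the 250 bases. Counting from 1 at the 5′ end of the window, with the Hspa1a base first, the differences are C44T, T47C and T249G, and none lies in the capitals. The marked element spans bases -104 to -97 from the start in both genes.

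The transcripts are alike beyond the promoter. Of all 100-base stretches of the Hspa1a transcript (GENCODE M21, 2967 bases), 47.1% occur unchanged in the Hspa1b transcript (2803 bases), and 49.9% the other way. A read that lies wholly in such a stretch matches both genes, and how the authors counted these reads is not given in the sources used here, so the split between the 2 genes is uncertain. The genes lie on chromosome 17 of GRCm38, Hspa1b (ENSMUSG00000090877) at 34956436 to 34959238 and Hspa1a (ENSMUSG00000091971) at 34969190 to 34972156, with 9951 bases between them.

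RefSeq windows of 300 bases, 250 before and 50 after the start, matched 7 of the 10 genes, and Hspa8, Hsp90aa1 and Hsp90ab1 had no entry. A heat shock element of 2 units, searched on both strands, was in a window of 6 of the 7 genes, Dnajb1 being the exception, and in 15.1% of all 32851 promoter windows. An element of 3 units (GAANNTTCNNGAA or TTCNNGAANNTTC, each of which contains elements of 2 units) was in a window of Hsph1, Hspd1 and Hspe1, and in 0.60% of all windows. Hspb1 carried a pair of separate elements, shown here at chr5:135887772-135887859 on the plus strand of the same build, again with the elements in capitals.
Hspb1: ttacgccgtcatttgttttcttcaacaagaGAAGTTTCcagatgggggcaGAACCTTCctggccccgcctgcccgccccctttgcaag
Hspd1 and Hspe1 are read in opposite directions from 1 shared region, where their elements run together over 18 bases, at chr1:55088059-55088076 and given here on the strand of Hspe1 with all bases inside an element.
Hspd1 and Hspe1: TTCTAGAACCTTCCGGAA
These matches describe the letters of the windows and are not evidence of binding in these mice.

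In the pre-treatment experiment, the inducible pair was the lowest in every mouse that had received irisin before MPTP. Hspa1b was at 14.2, 10.3 and 13.0 CPM in the control mice, 19.0, 18.4 and 24.9 CPM in the MPTP treated mice, and 2.06, 3.20 and 2.50 CPM in the mice given irisin and then MPTP. All MPTP treated mice lay above all control mice, and all irisin pre-treated mice lay below both. Hspa1a was at 20.6, 8.91 and 15.2 CPM in control mice, 19.4, 19.8 and 23.1 CPM in MPTP treated mice, and 3.99, 5.20 and 5.63 CPM with irisin pre-treatment. For Hspa1a the control mice were spread widely and overlapped the MPTP treated mice, and the irisin pre-treated mice again lay below the rest.

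**Figure D1:**
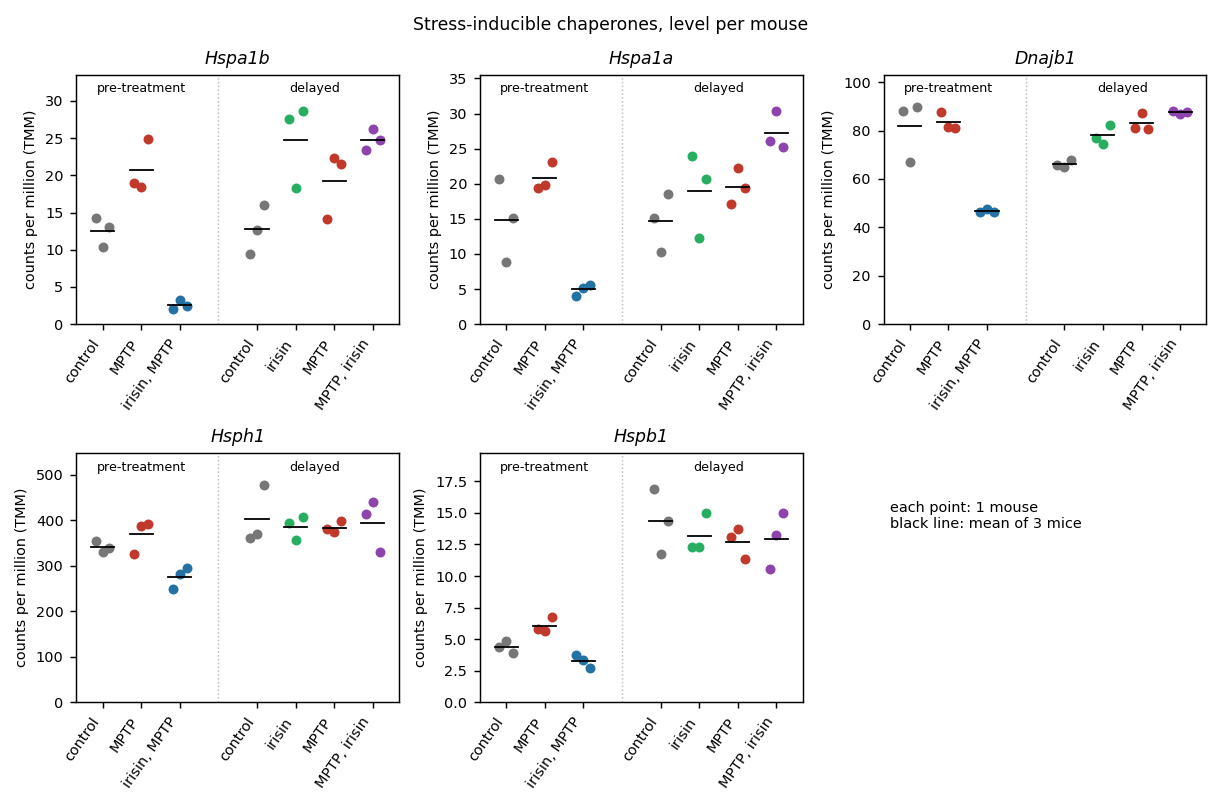
Level of Hspa1b, Hspa1a, Dnajb1, Hsph1 and Hspb1 in CPM, with 1 point per mouse and a line at the mean of the 3 mice of each group, the pre-treatment experiment on the left of each panel and the delayed treatment experiment on the right. In the pre-treatment experiment the 3 mice given irisin before MPTP are the lowest of their experiment in all 5 panels, and in the delayed treatment experiment the 3 mice given irisin after MPTP lie above the MPTP treated mice for Hspa1b and Hspa1a.

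The fitted log2 fold change of Hspa1b between irisin pre-treated and MPTP treated mice was −3.00 (SE 0.21), which is 8.02-fold lower, and that of Hspa1a was −2.07 (SE 0.28), which is 4.21-fold lower. Against control mice the values were −2.27 (SE 0.21) for Hspa1b and −1.59 (SE 0.28) for Hspa1a. MPTP treated mice against control mice gave 0.73 (SE 0.20) and 0.48 (SE 0.27). The 3 comparisons share their mice, so they are not independent of each other. When the counts of the pair were summed into 1 gene, a setting chosen after seeing the data, the log2 fold change between irisin pre-treated and MPTP treated mice was −2.47. The pair as a whole was lower too, a value that does not depend on how shared reads were divided between its genes. It could still depend on whether such reads were left out or counted for each gene, which is not known.

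Hspa1b was lower by more than Hspa1a on this scale, and its share of the reads of the pair was lower. Hspa1b made up 40.8, 53.6 and 46.2% of the counts of both genes in control mice, 49.4, 48.1 and 51.9% in MPTP treated mice, and 34.0, 38.1 and 30.7% with irisin pre-treatment. The 3 irisin pre-treated mice lay below the other 6. These shares rest on 441 to 619 reads of the pair per irisin pre-treated mouse and on 1302 to 3606 in the others. Together the pair took 0.142 to 0.198% of the counts of the 10 genes with irisin pre-treatment and 0.413 to 0.963% in the other mice.

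**Figure D2:**
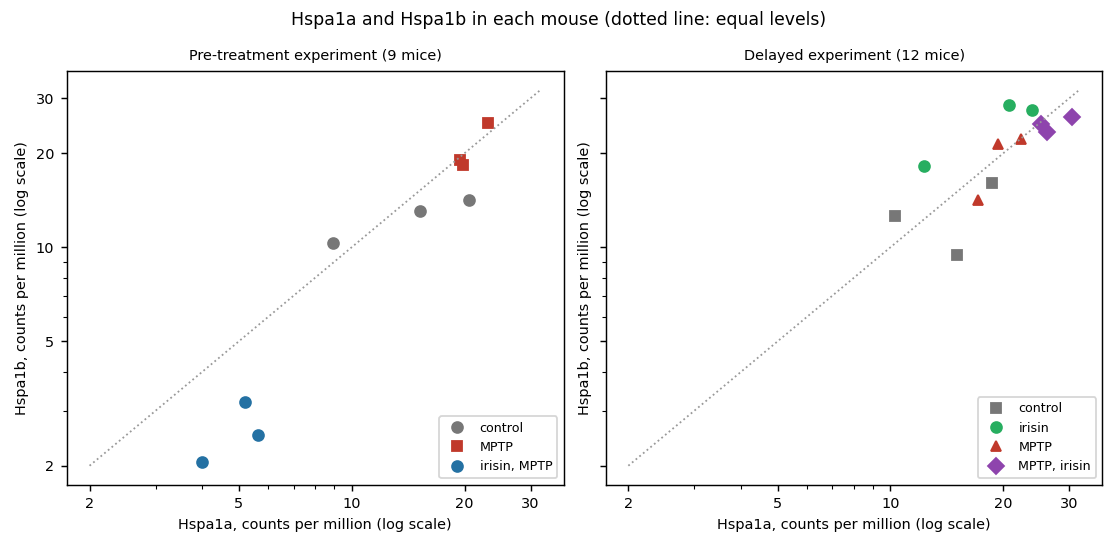
Hspa1a on the horizontal and Hspa1b on the vertical axis, both in CPM on log scales, in 1 panel per experiment, with 1 symbol per mouse, its colour and shape giving the group, and a dotted line at equal levels of both genes. The irisin pre-treated mice form a separate low cluster under the dotted line, and no mouse of the delayed treatment experiment lies there.

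Dnajb1, Hsph1 and Hspb1 had the next largest log2 fold changes, and in each the 3 irisin pre-treated mice were the lowest. Dnajb1 (ENSMUSG00000005483, chromosome 8, 83608193 to 83612653), the J-protein that delivers clients to HSP70, was at 88.0, 67.2 and 89.9 CPM in control mice, 87.5, 81.4 and 81.2 CPM in MPTP treated mice, and 46.4, 47.4 and 46.3 CPM with irisin pre-treatment. The irisin pre-treated mice lay close to each other, and MPTP treated mice did not stand apart from control mice. The log2 fold change of Dnajb1 was −0.84 (SE 0.11) against MPTP treated mice, −0.81 (SE 0.11) against control mice and 0.03 (SE 0.11) for MPTP against control.

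Hsph1 (ENSMUSG00000029657, chromosome 5, 149614287 to 149636376), which recharges HSP70 with ATP, was at 355, 330 and 338 CPM in control mice, 327, 388 and 392.3 CPM in MPTP treated mice, and 250, 282 and 294 CPM with irisin pre-treatment. Its mice with irisin lay below all others by a smaller margin, with a log2 fold change of −0.42 (SE 0.09) against MPTP treated mice. Hspb1 (ENSMUSG00000004951, chromosome 5, 135887919 to 135889563), the small heat shock protein, was at 4.39, 4.82 and 3.92 CPM in control mice, 5.84, 5.66 and 6.74 CPM in MPTP treated mice, and 3.77, 3.35 and 2.71 CPM with irisin pre-treatment. The 3 groups of Hspb1 did not overlap, with MPTP treated mice highest, and the log2 fold changes were 0.47 (SE 0.16) for MPTP against control and −0.89 (SE 0.17) for irisin pre-treatment against MPTP.

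The abundant members differed far less between the groups. Hspa8 (ENSMUSG00000015656, chromosome 9, 40800984 to 40810087), the constitutive HSP70, ranged from 1036 to 1382 CPM with irisin pre-treatment and from 1130 to 1529 CPM in MPTP treated mice, so these groups overlapped. Hsp90ab1 (ENSMUSG00000023944, chromosome 17, 45567775 to 45573271), the constitutive cytosolic HSP90, was at 1237 to 1312 CPM with irisin pre-treatment against 1382 to 1429 CPM in MPTP treated mice and 1313 to 1476 CPM in control mice, which is a log2 fold change of −0.14 (SE 0.05) against MPTP treated mice. Its inducible counterpart Hsp90aa1 (ENSMUSG00000021270, chromosome 12, 110690605 to 110702728) was at 1087, 1126 and 764 CPM in control mice and 1025 to 1145 CPM in the 6 others, so control replicate 3 was the mouse that stood apart. For the mitochondrial pair, Hspd1 (ENSMUSG00000025980, chromosome 1, 55077835 to 55088243) had a log2 fold change of −0.14 (SE 0.06) and its cochaperonin Hspe1 (ENSMUSG00000073676, chromosome 1, 55088132 to 55091307) one of −0.18 (SE 0.07) between irisin pre-treated and MPTP treated mice. Hspe1 was at 79.6 to 82.2 CPM with irisin pre-treatment, 87.5 to 96.5 CPM in MPTP treated mice and 87.6 to 100.2 CPM in control mice, so here too the irisin pre-treated mice were the lowest, by a narrow margin.

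**Figure D3:**
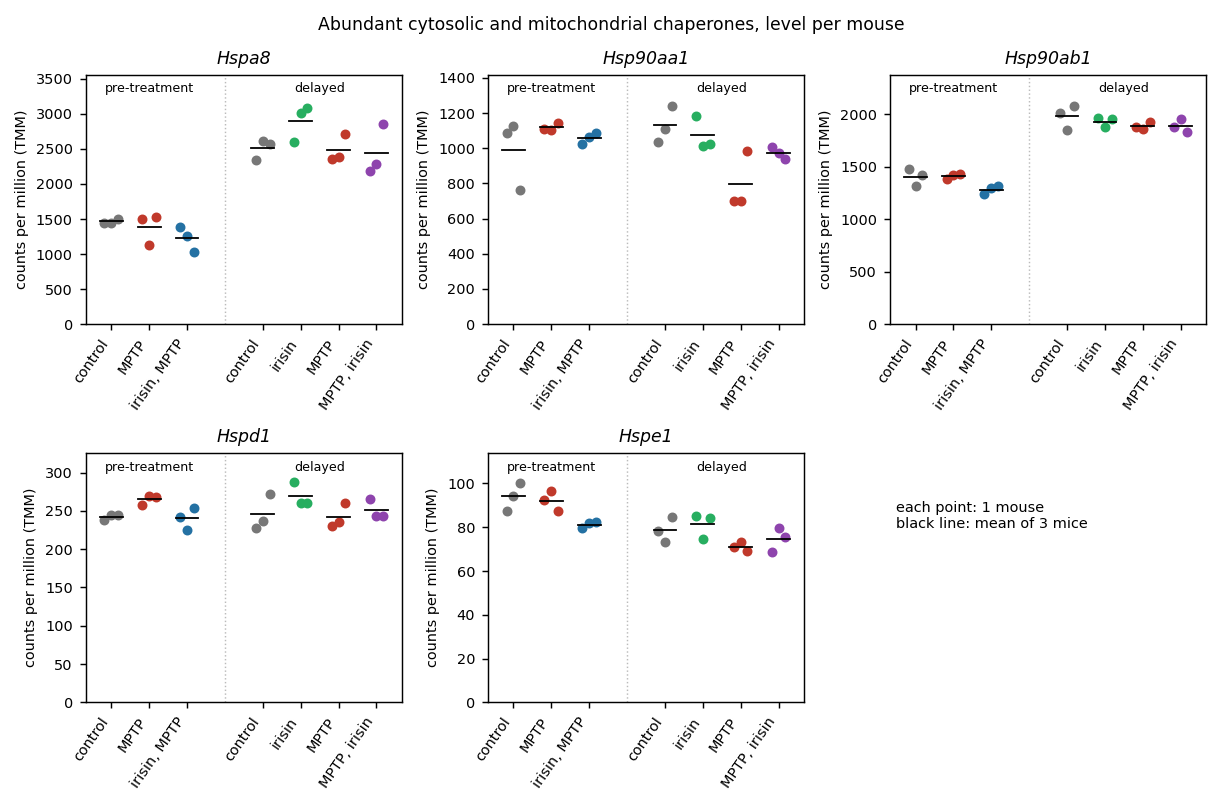
Level of Hspa8, Hsp90aa1, Hsp90ab1, Hspd1 and Hspe1 in CPM, drawn in the same way as the inducible genes, with axes starting at 0. Within an experiment the groups lie close together, except Hsp90aa1 in the MPTP treated mice of the delayed treatment experiment, and the levels of Hspa8 and Hsp90ab1 are higher in the delayed treatment experiment than in the pre-treatment experiment.

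Counted over the 10 genes, all 10 log2 fold changes were below 0 between irisin pre-treated and MPTP treated mice, with a median of −0.30 against 0.00 over all genes tested, where 49.3% of genes were below 0. All 3 irisin pre-treated mice lay below all 3 MPTP treated mice in 9 of the 10 (7.08% of all genes tested), Hspa8 being the exception, and below all control mice in 8 (6.92% of all genes). MPTP treated mice lay above control mice in 3, Hspa1b, Hspb1 and Hspd1 (5.71% of all genes). These counts describe the genes on the contrast taken to have led to their choice, and nothing more is read from them.

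Other genes moved in the same mice. Of 30 immediate early genes tested, 8 were lower with irisin pre-treatment than in MPTP treated mice by edgeR's quasi-likelihood test. Over all genes tested, 0.0707% passed this test at a Benjamini-Hochberg adjusted p under 0.05. The list was also drawn up with earlier results known. In 23 of the genes all 3 irisin pre-treated mice lay below all MPTP treated mice (7.08% of all genes tested). The 4 with the smallest p were Apold1, Klf4, Klf2 and Atf3. All 30 genes summed to 480 to 571 CPM with irisin pre-treatment, 802 to 891 CPM in MPTP treated mice and 650 to 746 CPM in control mice. This is the same order of groups as for Hspa1b. The 7 blood cell markers examined, among them the haemoglobin genes Hba-a1 and Hbb-bs, summed to 232 to 457 CPM with irisin pre-treatment against 553 to 812 CPM in MPTP treated mice and 530 to 827 CPM in control mice. The dopaminergic neuron markers overlapped between the groups, at 557 to 657, 567 to 884 and 555 to 844 CPM summed in the same order. All 10 of them had a log2 fold change below 0 with irisin pre-treatment, with a median of −0.31 both against MPTP treated and against control mice. Over all genes tested, 49.3 and 49.2% were below 0 in these comparisons. An unadjusted p under 0.05 was reached by 2 and by 3 markers (6.22 and 7.12% of all genes tested). The adjusted test passed 0 in each (0.0707% of all genes tested). Whether these differences have a part in the levels of the chaperone genes was not tested.

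The delayed treatment experiment allowed the members to be tested in mice other than those of the pre-treatment experiment. Only Dnajb1 passed, and only in the comparison of MPTP followed by irisin with control. Between MPTP treated and control mice 0 of the 10 genes passed an adjusted p of 0.05 from edgeR's quasi-likelihood test after Benjamini-Hochberg adjustment (0.132% of all genes tested passed), and between MPTP followed by irisin and MPTP alone 0 of the 10 passed (0.00456% of all genes). The count was 0 for irisin alone against control (0.109%), 1 for MPTP followed by irisin against control (0.109%), 0 for MPTP followed by irisin against irisin alone (0.00456%) and 0 for the interaction of irisin and MPTP (0.0411%). At an unadjusted p under 0.05 there were 3 members for MPTP against control (8.33% of all genes tested), 1 for MPTP followed by irisin against MPTP (3.9%), 2 for irisin alone against control (8.97%), 3 for MPTP followed by irisin against control (9.31%), 2 against irisin alone (3.88%) and 0 for the interaction (5.57%). The DESeq2 test with its own adjustment passed 2, 0, 2, 3, 0 and 0 of the 10 in that order, beside 0.773, 0.14, 0.608, 0.633, 0.14 and 0.248% of all genes it tested.

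Hspa1b and Hspa1a were higher, not lower, in the mice given irisin after MPTP, within what the test could not separate from the spread between mice. Hspa1b was at 9.48, 12.6 and 16.1 CPM in control mice, 27.5, 18.3 and 28.6 CPM with irisin alone, 14.1, 22.3 and 21.5 CPM with MPTP, and 23.4, 26.2 and 24.8 CPM with MPTP followed by irisin. All mice of both irisin groups lay above all control mice, and the mice given MPTP and then irisin lay above those given MPTP alone. The log2 fold changes against control were 0.96 (SE 0.23) with irisin alone, 0.60 (SE 0.23) with MPTP and 0.96 (SE 0.23) with MPTP followed by irisin, with adjusted p of 0.295, 0.509 and 0.304 from edgeR's quasi-likelihood test after Benjamini-Hochberg adjustment. The first and the last passed by DESeq2, with adjusted p of 0.0115 and 0.0102.

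Hspa1a followed with more overlap. It was at 15.1, 10.3 and 18.6 CPM in control mice, 23.9, 12.3 and 20.7 CPM with irisin alone, 17.1, 22.3 and 19.4 CPM with MPTP, and 26.2, 30.4 and 25.2 CPM with MPTP followed by irisin. Only the mice given MPTP and then irisin stood apart, above all other mice of the experiment. Its log2 fold change against control was 0.90 (SE 0.25) in that group, with an adjusted p of 0.380 from edgeR's quasi-likelihood test after Benjamini-Hochberg adjustment and 0.0472 by DESeq2. Between MPTP followed by irisin and MPTP alone the log2 fold changes were 0.48 (SE 0.25) for Hspa1a and 0.36 (SE 0.23) for Hspa1b, each with an adjusted p of 0.9995. The interaction of irisin and MPTP was 0.11 (SE 0.35) for Hspa1a and −0.60 (SE 0.32) for Hspa1b, with adjusted p of 0.993 and 0.911.

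**Figure D4:**
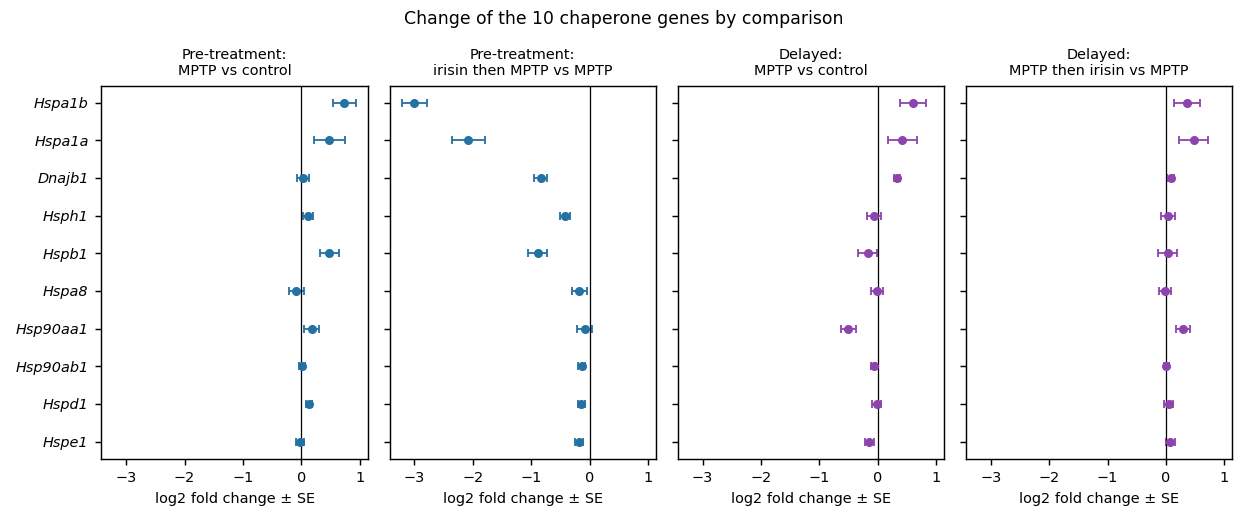
Fitted log2 fold change of each of the 10 genes with its standard error as a bar, in 4 comparisons, the first 2 from the pre-treatment experiment and the last 2 from the delayed treatment experiment. With irisin before MPTP the values of Hspa1b and Hspa1a are −3.00 and −2.07, whereas with irisin after MPTP they are 0.36 and 0.48.

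Dnajb1 rose with MPTP followed by irisin. It was at 65.6, 65.0 and 68.0 CPM in control mice, 76.95, 74.6 and 82.4 CPM with irisin alone, 81.1, 87.4 and 80.8 CPM with MPTP, and 88.2, 86.9 and 87.7 CPM with MPTP followed by irisin. All 9 treated mice lay above the 3 control mice, and within the MPTP groups the values overlapped. The log2 fold change against control was 0.40 (SE 0.06) with MPTP followed by irisin, which is 1.32-fold, with an adjusted p of 0.0204 from edgeR's quasi-likelihood test after Benjamini-Hochberg adjustment. With MPTP alone it was 0.33 (SE 0.06), with an adjusted p of 0.0685, and with irisin alone 0.24 (SE 0.06), with an adjusted p of 0.295. The call for MPTP followed by irisin was lost without any 1 of the 6 mice compared, with adjusted p of 0.0597 to 0.102, when the 2 groups were fitted alone (0.158), and with the replicate number as a block (0.101). Its log2 fold change stayed between 0.39 and 0.43 in these leave-one-out fits.

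Hsp90aa1 was lowest in the MPTP treated mice of this experiment. It was at 1037, 1111 and 1240 CPM in control mice, 1183, 1014 and 1024 CPM with irisin alone, 699.8, 699.6 and 985 CPM with MPTP, and 1008, 975 and 938 CPM with MPTP followed by irisin. All MPTP treated mice lay below all control mice, with replicate 3 close to the mice that had also received irisin. The log2 fold change of MPTP against control was −0.51 (SE 0.12), with an adjusted p of 0.284 from edgeR's quasi-likelihood test after Benjamini-Hochberg adjustment and 0.0399 by DESeq2. Without replicate 3 of the MPTP treated mice it was −0.69, with an adjusted p of 0.0189. In the pre-treatment experiment the same comparison gave 0.18 (SE 0.13), and without its control replicate 3 it gave 0.01.

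The remaining 6 members differed little in the delayed treatment experiment. Hspa8 was highest with irisin alone, at 2601 to 3078 CPM against 2339 to 2615 CPM in control mice, with a log2 fold change of 0.21 (SE 0.10) and an adjusted p of 0.575 from edgeR's quasi-likelihood test after Benjamini-Hochberg adjustment. Hspb1, whose pre-treatment groups did not overlap, gave −0.17 (SE 0.16) for MPTP against control and 0.02 (SE 0.16) for MPTP followed by irisin against MPTP, with all 4 groups overlapping between 10.5 and 16.9 CPM. Hsph1 gave −0.07 (SE 0.12) and 0.04 (SE 0.12) in these comparisons, Hspd1 −0.02 (SE 0.08) and 0.05 (SE 0.08), Hspe1 −0.15 (SE 0.08) and 0.07 (SE 0.08), and Hsp90ab1 −0.07 (SE 0.05) and 0.00 (SE 0.05). Over the 10 genes the median log2 fold change was −0.05 for MPTP against control and 0.06 for MPTP followed by irisin against MPTP, beside 0.00 for all genes tested in each.

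Set side by side, the groups held different places in the order of levels. Hspa1b was ordered irisin pre-treatment, control and MPTP from low to high in the first experiment, with no overlap between neighbours. In the second its order was control, MPTP, MPTP followed by irisin, and irisin alone, where neighbours overlapped except MPTP and MPTP followed by irisin. Control mice had close levels of the pair in both experiments, at 12.5 ± 2.0 and 12.7 ± 3.29 CPM of Hspa1b (SD, n = 3) and 14.9 ± 5.86 and 14.7 ± 4.18 CPM of Hspa1a. The tables were made separately, so a level set across them is a description.

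Not all members had like levels in the 2 tables. Per gene length, as the deposited FPKM values give it, Hspb1 was at 2.34 to 5.74 FPKM in the 9 mice of the pre-treatment experiment and 9.15 to 14.4 FPKM in the 12 mice of the delayed treatment experiment, and the medians differed 3.0-fold. Hspa8 was at 215 to 314 and 454.5 to 630 FPKM, and Hsp90ab1 at 361.5 to 439 and 540 to 608 FPKM. The ranges of the other 7 genes overlapped. Between genes, control mice of the pre-treatment experiment had 414 ± 31.7 FPKM of Hsp90ab1, 302 ± 11.8 of Hspa8 and 223 ± 41.8 of Hsp90aa1, but 22.6 ± 3.90 FPKM of Dnajb1 and about 4 FPKM of each inducible HSP70 gene (4.46 ± 1.80 of Hspa1a and 3.95 ± 0.696 of Hspa1b). The 10 genes together took 0.416 to 0.428% of all counts with irisin pre-treatment, 0.451 to 0.495% in its control and MPTP treated mice, and 0.578 to 0.690% across the delayed treatment mice.

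The members did not vary as 1 block. Across the 9 mice of the pre-treatment experiment, Pearson's r of log2 CPM with Hspa1b was 0.97 for Hspa1a, 0.95 for Dnajb1, 0.92 for Hsph1 and 0.86 for Hspb1, but 0.06 for Hsp90aa1. Across the 12 mice of the delayed treatment experiment it was 0.74 for Hspa1a and 0.78 for Dnajb1, but 0.20 for Hsph1 and −0.26 for Hspb1. These values contain the differences between groups, which in the pre-treatment experiment are those taken to have led to the choice of the genes. For deviations from the group means, r with Hspa1b in the pre-treatment experiment was 0.74 for Hspa1a, 0.46 for Dnajb1, 0.58 for Hsph1 and −0.09 for Hspb1. In the delayed treatment experiment it was 0.65, 0.62, 0.56 and −0.05 for the same genes. Over the 45 pairs of members, the median r went from 0.56 over mice to −0.09 for deviations in the pre-treatment experiment, and from 0.20 to 0.36 in the delayed treatment experiment. Values of 1 mouse share a library, and Hspa1a may share reads with Hspa1b, so these are descriptions. The 5 genes outside the set most like Hspa1b, taking for each of the 20760 such genes measured in both experiments the lower of its 2 correlations over mice, were Chordc1 (0.83), Bcl2 (0.79), Gm15542 (0.78), Pcdhga5 (0.76) and Hnrnpr (0.76). Chordc1 encodes an HSP90 cochaperone. It was at 89.5 to 109 CPM with irisin pre-treatment, 128 to 147 CPM in MPTP treated mice and 112 to 116 CPM in control mice. This is the same order as Hspa1b, but Chordc1 was picked for its likeness to Hspa1b over these mice, so the order is not a separate result.

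The heat shock factors and their regulators examined showed no difference that passed the test. Hsf1, the factor that starts the heat shock response, was at 24.8 to 30.5 CPM with irisin pre-treatment, 24.6 to 28.9 CPM in MPTP treated mice and 20.6 to 29.8 CPM in control mice. Hsf2 was at 33.9 to 36.4, 33.7 to 38.6 and 35.1 to 36.9 CPM in the same groups, and Hsf4 at 20.3 to 23.0, 18.01 to 20.3 and 17.3 to 22.6 CPM. Hsf3, Hsf5 and Hsf2bp were at most at 1.51 CPM in any mouse of both experiments. In the delayed treatment experiment Hsf1 ranged from 21.6 to 34.6 CPM with all 4 groups overlapping, and Hsf4 was lower with irisin alone (23.3 to 24.8 CPM) than in control mice (26.4 to 29.5 CPM), with a log2 fold change of −0.22 (SE 0.09) and an adjusted p of 0.531 from edgeR's quasi-likelihood test after Benjamini-Hochberg adjustment. RNA levels do not show whether the factors were active.

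Beyond the 10 genes, 115 other chaperone-related genes were examined in 10 lists, of which 111 and 112 were tested in the 2 experiments. These lists were also drawn up with earlier results of these data known, so their counts and p-values are a description. By edgeR's quasi-likelihood test after Benjamini-Hochberg adjustment, 0 passed in any of the 9 comparisons, where 0.0221% of all genes passed for MPTP against control and 0.0707% for irisin pre-treatment against MPTP and against control. Between irisin pre-treated and MPTP treated mice, 4 of the 111 were higher and 15 lower at an unadjusted p under 0.05 (6.22% of all genes tested were under it in either direction), and DESeq2 passed 5 (0.707% of all genes it tested). These were Serpinh1, Pdia4, Pfdn6 and Chordc1, which were lower, and Fkbp5, which was higher. Other targets of heat shock factor 1 had 7 of their 15 genes lower and 1 higher at an unadjusted p under 0.05, with a median log2 fold change of −0.18. The endoplasmic reticulum chaperones had 5 of 12 lower and 0 higher, and all 12 had a log2 fold change below 0 in that comparison and above 0 for MPTP against control, 2 comparisons that share the MPTP treated mice.

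Serpinh1, the collagen chaperone of the endoplasmic reticulum, had the smallest p of the heat shock factor 1 targets. It was at 9.75 to 11.4 CPM with irisin pre-treatment, 17.5 to 19.8 CPM in MPTP treated mice and 14.6 to 17.2 CPM in control mice, with a log2 fold change of −0.80 (SE 0.11) and an adjusted p of 0.0582 against MPTP treated mice from edgeR's quasi-likelihood test after Benjamini-Hochberg adjustment. Pdia4, a disulfide isomerase of the endoplasmic reticulum, was at 28.5 to 31.4, 40.8 to 45.9 and 31.9 to 35.1 CPM in these groups, with −0.52 (SE 0.08) and an adjusted p of 0.0721. In both genes the irisin pre-treated mice lay below all others. The genes with the smallest p of the other lists were Hspa5 (−0.49, SE 0.14) of the HSP70 family, Dnaja1 (−0.20, SE 0.06) of the J-proteins, Cryab (−0.38, SE 0.22) of the small heat shock proteins, Stip1 (−0.21, SE 0.05) of the HSP70 cochaperones, Chordc1 (−0.45, SE 0.08) of the HSP90 cochaperones, Pfdn6 (−0.35, SE 0.07) of the chaperonin and prefoldin list and Timm44 (0.21, SE 0.07) of the mitochondrial list. Their adjusted p lay between 0.175 and 0.922. The immunophilin Fkbp5, an HSP90 cochaperone, went the other way, at 53.9 to 68.3 CPM with irisin pre-treatment against 12.8 to 37.0 CPM in MPTP treated mice and 21.0 to 25.7 CPM in control mice (log2 fold change 1.18, SE 0.33, adjusted p of 0.537 against MPTP treated mice).

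**Figure D5:**
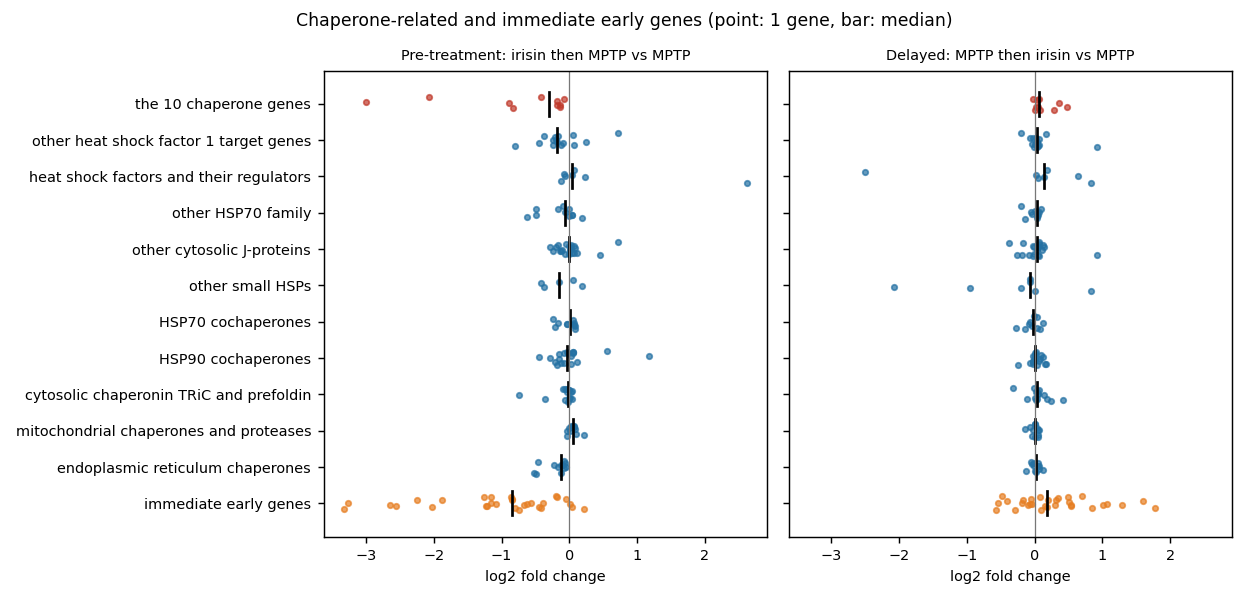
Log2 fold change of every tested gene of the 10 chaperone genes, the chaperone-related lists and the immediate early genes, with 1 point per gene, a bar at the median of each list and a line at 0, for irisin before MPTP on the left and irisin after MPTP on the right, each against MPTP alone. On the left, Hspa1b, Hspa1a and many immediate early genes lie far below 0 while the medians of the other lists lie between −0.18 and 0.05. On the right the members lie between −0.02 and 0.48, with Hspa1a and Hspa1b the highest.

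In the delayed treatment experiment the same lists gave no gene past the adjusted threshold in the 6 comparisons, and at an unadjusted p under 0.05 there were 11 higher and 6 lower of 112 with irisin alone (8.97% of all genes were under it in either direction), 6 and 8 with MPTP (8.33%), and 9 and 7 with MPTP followed by irisin (9.31%), each against control. The counts were 3 and 5 for MPTP followed by irisin against MPTP (3.9%), 1 and 5 against irisin alone (3.88%), and 2 and 2 for the interaction (5.57%). Dnajb4, a J-protein and heat shock factor 1 target, had the smallest p of its list for irisin and for MPTP against control and for the interaction. It was at 66.8 to 73.9 CPM in control mice, 33.1 to 37.4 CPM with irisin alone, 29.1 to 33.3 CPM with MPTP and 29.8 to 76.4 CPM with MPTP followed by irisin. The interaction was 1.88 (SE 0.37) on the log2 scale, with an adjusted p of 0.276 from edgeR's quasi-likelihood test after Benjamini-Hochberg adjustment, and it passed when the low mouse of the last group, replicate 2, was left out. In the control mice of the pre-treatment experiment Dnajb4 ranged from 34.3 to 91.3 CPM, so single mice of a group differed by as much as the groups.

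Immediate early genes and the inducible pair did not move alike in every comparison of the delayed treatment experiment. For MPTP against control, 10 of the 30 genes had a log2 fold change above 0 and 20 below (median −0.34). With MPTP followed by irisin against control it was 11 and 19 (median −0.19). With irisin alone against control it was 20 and 10 (median 0.16), and with MPTP followed by irisin against MPTP 19 and 11 (median 0.19). The pair was above 0 in all these comparisons. The summed level of the 30 genes was 711 to 761 CPM in MPTP treated mice, 878 to 1034 CPM in control mice, 871 to 1084 CPM with irisin alone and 742 to 909 CPM with MPTP followed by irisin, whereas Hspa1b was lowest in control mice. Of these genes 3, Btg2, Apold1 and Zfp36, were lower in MPTP treated than in control mice by the adjusted test, which 0.132% of all genes tested passed. Dopaminergic neuron markers summed to 489 to 617 CPM with MPTP, 499 to 574 CPM with MPTP followed by irisin, 660 to 671 CPM with irisin alone and 711 to 749 CPM in control mice, so both MPTP groups, in which Dnajb1 was highest, had the lower marker levels. Whether the lower marker levels have a part in the level of Dnajb1 or Hsp90aa1 was not tested.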

How the data were processed

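RNA of nigral tissue from 21 mice, called midbrain in the labels, was sequenced on an Illumina NovaSeq instrument. The authors deposited raw read counts per gene made with featureCounts, and FPKM values, whose tool is not given in the sources used here, in 1 table per experiment. The submitters' processing notes name HISAT, StringTie, edgeR and the build mm9, whereas gene coordinates equal those of GENCODE M21 (GRCm38) for 91.98 and 94.28% of identifiers, so GRCm38 is used here. Whether strand was used in counting is not given in the sources used here. The authors' own comparison columns were not used.

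Counts of each experiment were fitted alone, all groups together, with edgeR 4.0.16 in R 4.3.3 (TMM scaling, filterByExpr with a count minimum of 10 and a total of 15, quasi-likelihood test, 2-sided, Benjamini-Hochberg adjustment over all tested genes, threshold 0.05). The SE is the log2 fold change divided by the root of the F statistic. The script was tested on simulated data. Alternatives were median ratio scaling, all genes with any count, DESeq2 1.42.0, the compared groups alone, the replicate number as a block, leaving out each mouse and, chosen after seeing the data, summed counts of Hspa1a and Hspa1b. Nothing says that replicate numbers mark a shared litter or day. Each p-value sets a difference against the spread between mice within all groups of its experiment.

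The 10 members, the gene lists and the tests were chosen with earlier results of these data known. Named genes were all members, all measured heat shock factors, in each list and comparison discussed the genes past the threshold (at most 4) or else the 1 with the smallest p, and the 5 genes most like Hspa1b. Genes passed by other tools, and Btg2, Apold1 and Zfp36 where a count was small, were named as well. There were 48.8 to 77.2 M counts per mouse and 3 mice per group, and how much each of these set the error of the members was not tested.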

Additional observations from a re-analysis of the deposited data

Results flagged for a closer look

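Some members lay on opposite sides of the comparison group in the 2 experiments, in every mouse. Against MPTP alone this held for Hspa1b and Hspa1a, which were lower in all mice given irisin before MPTP and higher in all given irisin after MPTP, and the log2 fold change of the delayed treatment exceeded that of the pre-treatment by 3.37 for Hspa1b and by 2.55 for Hspa1a. Against control mice it held for 3 members, by 3.23 for Hspa1b, 2.49 for Hspa1a and 1.21 for Dnajb1, whereas against MPTP alone Dnajb1 overlapped in the delayed treatment experiment. These differences between experiments were not tested, because the tables were made separately and were not fitted together. All mice given MPTP and then irisin lay above all given MPTP alone in 1173 of 21922 genes tested. The same mice lay above all control mice in 1624. All irisin pre-treated mice lay below all MPTP treated mice in 1604 of 22641 genes tested, and below all control mice in 1567. Genes that did both were not counted. The pre-treatment change against MPTP was taken to stand behind the choice of members. Hspa1a and Hspa1b share sequence, so they are not 2 separate results. The order of the injections, the day of sampling after the last MPTP dose and the experiment itself cannot be told apart.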

How the results depend on the processing

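In the delayed treatment experiment, 284 of 296 log2 fold changes of the members kept their direction and side of the threshold under the alternatives that keep all mice, and 372 of 420 when 1 mouse was left out. DESeq2 passed 2 members for irisin alone against control (Hspa1b and Dnajb1), 2 for MPTP against control (Dnajb1 and Hsp90aa1, the latter lower) and 3 for MPTP followed by irisin against control (Dnajb1, Hspa1b and Hspa1a). In that last comparison 0 passed with the 2 groups alone and 0 with the replicate number as a block, where Dnajb1 had 0.40 and an adjusted p of 0.101. Same-numbered mice did not deviate together over all genes, since 0 of 9 and 0 of 18 pairs had a correlation over 0.1. Because this check takes all genes together, it cannot decide whether same-numbered mice shared a litter or day that affects some genes. Without 1 mouse the count of members passed was 0 to 1 for MPTP against control and 0 to 0 for MPTP followed by irisin against control. Of the other chaperone-related genes, DESeq2 passed 2 for MPTP against control, 5 for irisin pre-treatment against MPTP and 2 against control, and in the delayed treatment experiment 2, 1 and 1 for irisin, for MPTP and for the interaction. The 2 groups alone passed 1 gene each for irisin pre-treatment, for delayed irisin and for delayed MPTP against control (Fkbp5, Dnajb4 and Dnajb4). Leaving out 1 mouse gave 0 to 1 for MPTP followed by irisin against MPTP and against irisin alone and for the interaction, the 1 being Dnajb4 without replicate 2 of the mice given MPTP and then irisin.

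Where the direction changed, the log2 fold changes on the other side of 0 were at most 0.25 in size. With all genes of any count they were 0.001 for Hspa8 (MPTP against control) and -0.0127 for Hsp90ab1 (MPTP followed by irisin against MPTP), and for Hspa1b between MPTP followed by irisin and irisin alone 0.0002 with the replicate block and 0.25 with the pair summed. Leaving out 1 mouse, the log2 fold change for irisin against control ran from -0.1393 to 0.0770 for Hsph1, -0.2448 to 0.0121 for Hspb1, -0.1479 to 0.0011 for Hsp90aa1, -0.0823 to 0.0009 for Hsp90ab1 and -0.0009 to 0.1055 for Hspe1. For MPTP against control it ran from -0.1471 to 0.0692 for Hsph1, -0.0845 to 0.0258 for Hspa8 and -0.0771 to 0.0603 for Hspd1. For MPTP followed by irisin against MPTP it ran from -0.0404 to 0.1569 for Hsph1, -0.0926 to 0.1526 for Hspb1, -0.1500 to 0.0496 for Hspa8 and -0.0208 to 0.0295 for Hsp90ab1. Against control it ran from -0.1123 to 0.1116 for Hsph1, -0.1636 to 0.0358 for Hspa8 and -0.0223 to 0.1110 for Hspd1, and against irisin alone from -0.1786 to 0.1171 for Hspa1b, -0.0484 to 0.1491 for Hsph1 and -0.1447 to 0.1005 for Hspb1. The interaction ran from -0.1261 to 0.3069 for Hspa1a, -0.0345 to 0.2208 for Hsph1 and -0.0341 to 0.0797 for Hspe1. The cause of these changes was not tested. In the pre-treatment experiment, MPTP against control was 0.78 for Hspa1a without control replicate 1 and -0.09 for Dnajb1 without control replicate 2.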
